A study of Mus musculus with 12 samples.

Results

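The genes of complement and of blood coagulation were described as one group of 43, given as a list of symbols: 22 complement genes and 21 genes of coagulation and fibrinolysis. They were found by the gene names of the array's non-control probes, with older synonyms allowed, among 27671 features on the array, and 65 probes carried their names. Liver RNA of 12 C57BL/6 males, 8 to 10 weeks old, was hybridised to one-colour arrays, 1 mouse per array, in a study of Hes1 and glucocorticoid signaling in the liver. The 4 groups of 3 mice were wild type untreated, wild type given dexamethasone, HESKOL untreated and HESKOL given dexamethasone. Dexamethasone, a synthetic glucocorticoid, was injected into the peritoneum at 1 mg/kg and livers were collected 6 hours later. Adrenalectomy, which removes the animal's own source of glucocorticoids, had been done in every mouse, controls included. HESKOL is not spelled out in the labels, no driver of a deletion is named there, and no injection of the untreated mice is described.

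Complement is a cascade of plasma proteases that is started by antibody complexes (classical pathway), by sugar-binding lectins (lectin pathway) or spontaneously on surfaces (alternative pathway), converges on C3 and ends in a membrane pore. Coagulation is a second protease cascade, begun by tissue factor or by contact with a surface, that turns fibrinogen into fibrin, is held back by anticoagulants and is undone by plasmin. Hepatocytes make most of these plasma proteins and many belong to the acute phase response, on which glucocorticoids act together with cytokines.

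Signals are given as log2 values after subtraction of the array's 75th percentile, and a change is a difference of group means on that log2 scale, given with its standard error (SE). Of the 43 members, 42 were bright enough to test, which required a signal well above background in all 3 mice of some group. C5ar1, the receptor for the C5a fragment, was not: it was well above background on 1 of 3 arrays in untreated wild-type, 2 in treated wild-type, 1 in untreated HESKOL and 1 in treated HESKOL liver. Between 62.2% and 72.3% of spots were well above background on each array. All 8 hepatocyte markers on the array were well above background in every mouse. Hes1 was -1.49, -1.22 and -1.90 in untreated and -1.16, -2.57 and -2.92 in treated wild-type liver, against -2.46, -2.40 and -3.09 in untreated and -3.08, -3.02 and -3.85 in treated HESKOL liver. The genotypes did not overlap in Hes1 under either condition, but neither difference passed the adjusted test (with dexamethasone -1.10, adjusted p = 0.248, limma). Of 10 known glucocorticoid-responsive genes, all 10 had a positive change with dexamethasone in each genotype. The adjusted test (limma) was passed by 3 in wild-type and 8 in HESKOL liver, where 0.199% and 7.82% of all features passed. Replicate 1 of the treated wild-type mice stood apart at some of them. It was the lowest of its group at 6 of the 10 genes and the highest at Igfbp1, Dusp1 and Sgk1. Igfbp1 was 8.94 in that mouse against 6.69 and 8.52, Dusp1 4.66 against 4.20 and 3.60, and Sgk1 4.32 against 3.39 and 4.06. Fkbp5 was -0.998 in that mouse against 3.45 and 3.98 in the other 2. This lay below every untreated wild-type mouse (0.326, 1.19 and -0.646). Tsc22d3 was 2.40 against 5.51 and 4.32, and Ddit4 was 4.07 against 6.65 and 6.91; this mouse lay above every untreated wild-type mouse for 8 of the 10 genes, all but Fkbp5 and Tsc22d3. Without it the counts past the adjusted test were 8 and 10 of 10, and 6.06% and 14.9% of all features passed. Liver is a mixture of cells, and here fewer cells of a type and less RNA per cell cannot be told apart.

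The 2 members that passed the adjusted test in any comparison are shown first by the DNA before their transcription start, because they are the only members called, and the 3 fibrinogen chains beside them, because they are neighbours on chromosome 3 and form a single protein. Each line gives the 250 bases before the start, 5′ to 3′ on the strand of the gene, from RefSeq on build GRCm38.p6; capitals mark matches to any of the motifs listed after them.
C3ar1, chr6:122856158-122856407, minus strand: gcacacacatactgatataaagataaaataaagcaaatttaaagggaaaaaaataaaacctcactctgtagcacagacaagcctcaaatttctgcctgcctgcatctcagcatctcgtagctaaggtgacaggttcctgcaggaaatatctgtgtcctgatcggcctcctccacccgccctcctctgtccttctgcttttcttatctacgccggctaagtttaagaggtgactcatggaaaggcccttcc
Pros1, chr16:62854057-62854306, plus strand: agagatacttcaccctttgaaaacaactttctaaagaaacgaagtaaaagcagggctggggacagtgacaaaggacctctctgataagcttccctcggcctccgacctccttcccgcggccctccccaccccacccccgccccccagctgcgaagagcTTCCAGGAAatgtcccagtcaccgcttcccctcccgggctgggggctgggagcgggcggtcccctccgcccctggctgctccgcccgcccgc
Fga, chr3:83025903-83026152, plus strand: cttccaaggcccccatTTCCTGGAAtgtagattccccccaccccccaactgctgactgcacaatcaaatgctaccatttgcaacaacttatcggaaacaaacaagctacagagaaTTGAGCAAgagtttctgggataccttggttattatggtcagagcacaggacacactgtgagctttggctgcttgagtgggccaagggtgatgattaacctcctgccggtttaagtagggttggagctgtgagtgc
Fgb, chr3:83049864-83050113, minus strand: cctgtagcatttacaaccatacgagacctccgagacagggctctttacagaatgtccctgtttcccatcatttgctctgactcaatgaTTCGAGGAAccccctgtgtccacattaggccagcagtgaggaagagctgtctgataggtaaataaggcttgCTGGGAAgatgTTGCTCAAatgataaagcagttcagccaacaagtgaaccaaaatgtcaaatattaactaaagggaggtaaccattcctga
Fgg, chr3:83007474-83007723, plus strand: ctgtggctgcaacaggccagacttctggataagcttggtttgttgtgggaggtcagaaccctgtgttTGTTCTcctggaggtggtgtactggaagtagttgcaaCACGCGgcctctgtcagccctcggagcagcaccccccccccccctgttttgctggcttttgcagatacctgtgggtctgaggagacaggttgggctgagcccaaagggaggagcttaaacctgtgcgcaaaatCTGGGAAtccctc
Of the 43 members, 32 had such a window in the RefSeq table. Motifs were searched on both strands, over 250 bases before to 50 after the start. The window of Pros1 held a STAT-type match (TTCNNNGAA) at position -92 from the start, and those of Fga and Fgb held one at -234 and -162. A C/EBP-type match (TTGCNNAA) stood in Fga and Fgb, a CTGGGAA element in Fgb and Fgg, and the single-arm glucocorticoid receptor site AGAACA and a class C site (CACGCG) in Fgg. No motif was found in the printed stretch of C3ar1. The STAT letters were present in 7 of 32 members' windows and 8.30% of all 32851 windows, the C/EBP letters in 9 and 10.8%, the CTGGGAA letters in 7 and 11.1%, the AGAACA letters in 10 and 19.0%, and the N-box CACNAG, a sequence bound by Hes family repressors, in 22 and 42.5%. The class C letters were in 1 and 9.27%. The palindromic glucocorticoid response element, of which AGAACA is 1 arm, the HNF1 site and the HNF4 site (CAAAGTCCA) were in none of the 32 and in 0.0091%, 0.061% and 0.475% of all windows. These matches describe the letters only, and binding was not measured.

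**Figure D1:**
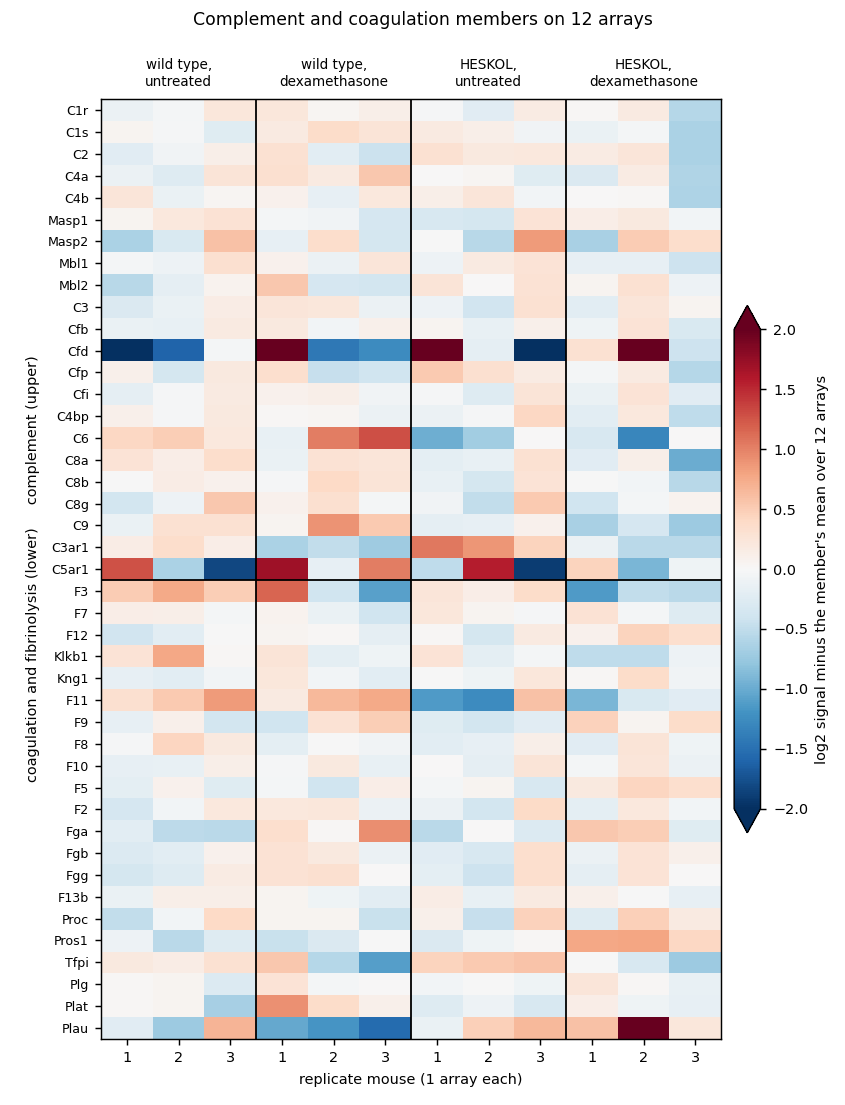
Each row is a member and each column 1 mouse's array; colour is the log2 signal minus that member's mean over the 12 arrays, with colours capped at 2 in either direction. Most rows are pale throughout, and Cfd, Plau, C6, F11, F3, Tfpi and C3ar1 vary most visibly among the tested members; C5ar1 is drawn although it was mostly not above background.

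Most members varied little. The median standard deviation within groups was 0.259 over the 42 members against 0.390 over the 18637 features tested, and it was under 0.3 for 27 members (64.3%) against 29.9% of features. Members and features were not matched for brightness in these figures. The steadiest were F13b, a subunit of the fibrin-crosslinking factor XIII, at 0.151, and Plg, which encodes plasminogen, at 0.158. At the other end stood Cfd, the alternative-pathway protease factor D, also called adipsin, at 2.24. The precision follows from this spread: the 95% interval of the wild-type dexamethasone effect lay within a log2 change of 1 in either direction for 33 of 42 members, against 49.3% of features. For HESKOL liver that count was 31, and for the difference between the genotypes' dexamethasone effects it was 17.

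Dexamethasone in wild-type liver moved none of the 42 members past an adjusted p of 0.05 (limma), where 0.199% of all features passed. At an unadjusted p under 0.05 there were 4 (C3ar1, Fga, Plat and Plau), against 11.8% of all features. The median change was 0.07 over the members and -0.02 over all features. The treated and untreated mice did not overlap for 6 members, 3 higher and 3 lower, against a background of 12.1% of features (6.12% higher and 5.96% lower). In HESKOL liver 2 members passed, where 7.82% of features did: C3ar1 fell and Pros1 rose (4.21% of features fell and 3.61% rose). The members' median change there was -0.02, against -0.003 over all features, and the groups did not overlap for 8 members, 3 higher and 5 lower, against 34.3% of features (15.5% higher and 18.7% lower). The members that passed were 4.76% of those tested, a share that rests on 2 genes and is not set apart from the 7.82% of all features.

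**Figure D2:**
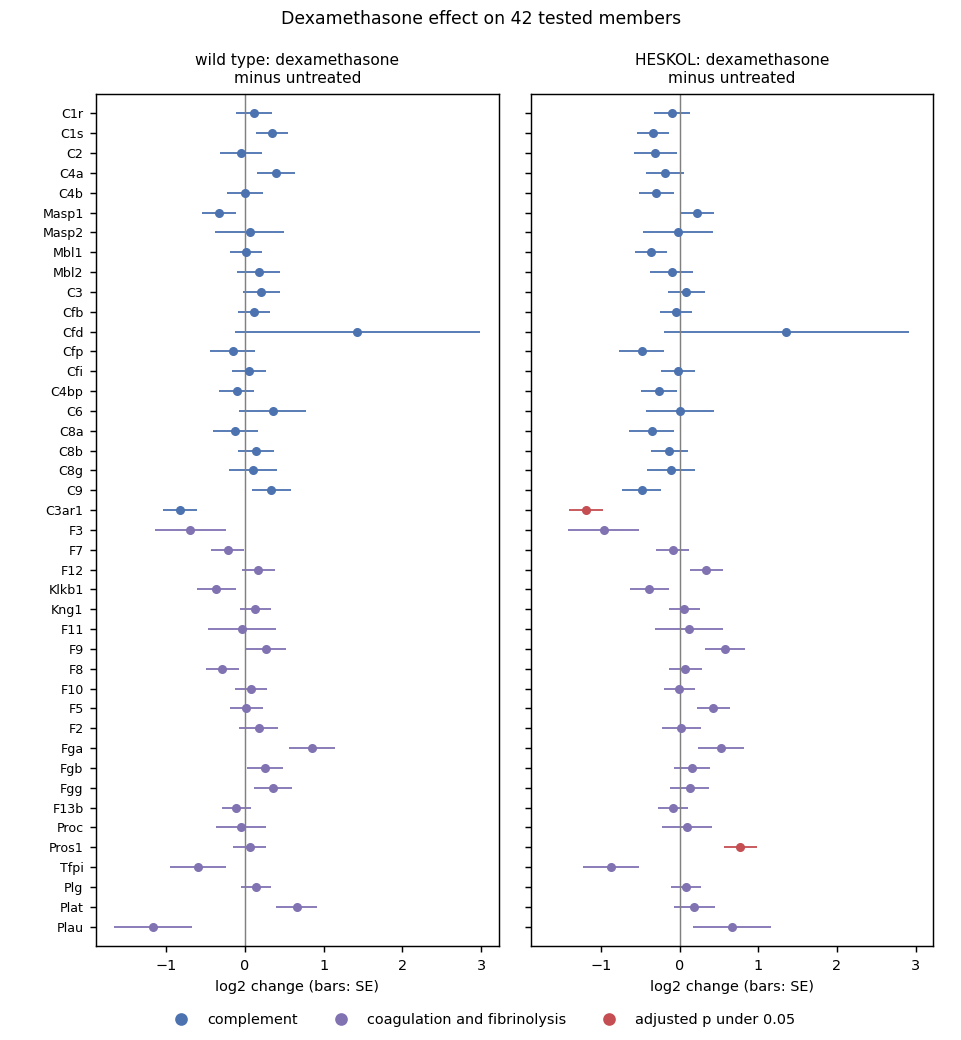
Points are the log2 change with dexamethasone for each of the 42 tested members in wild-type (left) and HESKOL liver (right), and bars are the SE; blue marks complement, purple coagulation and red an adjusted p under 0.05. The red points are C3ar1 at -1.19 and Pros1 at 0.77, both in HESKOL liver.

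Among the proteases that open the classical pathway, C1s, which cleaves C4 and C2, was 5.31, 5.23 and 5.01 in untreated and 5.44, 5.63 and 5.51 in treated wild-type liver. In HESKOL liver it was 5.44, 5.37 and 5.18 untreated and 5.13, 5.22 and 4.63 treated. The treated wild-type mice lay above the untreated ones without overlap, while the HESKOL groups overlapped. Its effects were 0.34 (SE 0.21) and -0.34 (SE 0.21), with adjusted p of 0.555 and 0.338, and the difference between them was -0.68 (SE 0.29, adjusted p = 0.705). C1r, its partner, taken here as the mouse gene C1ra, changed by 0.11 and -0.09; C1rb, a second mouse copy that is no member, changed by 0.07 and -0.32. C2, the protease that C1s and the lectin proteases cleave, was 6.18, 6.34 and 6.53 untreated and 6.71, 6.20 and 5.98 treated in wild-type liver. The HESKOL values of C2 were 6.71, 6.60 and 6.62 untreated and 6.58, 6.65 and 5.78 treated, so that 1 treated mouse in each genotype, replicate 3, was the lowest of its group.

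C4a, annotated in the reference as a transcribed pseudogene and a near copy of C4b, was -1.72, -1.86 and -1.34 in untreated and -1.28, -1.42 and -1.06 in treated wild-type liver. It was -1.59, -1.55 and -1.83 in untreated and -1.89, -1.44 and -2.20 in treated HESKOL liver. Under dexamethasone the HESKOL mice were lower without overlap (-0.59, SE 0.24, adjusted p = 0.263). Signals of C4a and C4b may cross between their probes, so either value is uncertain as to its gene. C4b, the functional C4, differed by -0.24 (SE 0.23) in the same comparison.

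In the lectin pathway, Masp1, a protease bound to the lectins, was 4.32, 4.47 and 4.56 in untreated and 4.23, 4.20 and 3.93 in treated wild-type liver, without overlap. It was 3.95, 3.91 and 4.54 in untreated and 4.40, 4.46 and 4.21 in treated HESKOL liver, where the groups overlapped. The gene has 4 probes that did not run the same way: their changes in wild-type liver ranged from -0.33 to 1.83, none of them past the adjusted test. The lectins Mbl1 and Mbl2, which bind microbial sugars, and the protease Masp2 changed by 0.01 to 0.17 in wild-type and by -0.36 to -0.02 in HESKOL liver. C3, the component on which the pathways converge, changed by 0.21 (SE 0.24) and 0.09 (SE 0.24), and Cfb, which forms the alternative C3 convertase, by 0.11 and -0.04. The C3 probe was saturated on 2 of the 3 untreated wild-type arrays.

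Cfd was -4.02, -2.83 and -1.26 in untreated and 1.32, -2.65 and -2.49 in treated wild-type liver. In HESKOL liver it was 1.49, -1.41 and -3.52 untreated and -0.93, 3.20 and -1.64 treated. The 12 arrays spanned 7.22 log2 units and every group overlapped every other, with 1 mouse above 1 in each of 3 groups. Cfd is best known as a product of fat cells, and of the 9 adipocyte markers, Cfd among them, 5 were above background on all 3 arrays of each group. Lep, which encodes leptin, was not above background on any array, Retn on none outside untreated wild-type liver, and Adipoq on none in treated wild-type and untreated HESKOL liver. The summed linear level of the 9 is given in multiples of the array's 75th percentile. It ran from 95.5 to 179 in untreated and 91.6 to 184 in treated wild-type liver. In HESKOL liver it ran from 77.0 to 154 untreated and 39.4 to 98.0 treated. The sum includes Cfd, and the markers did not move alike. With dexamethasone in HESKOL liver the changes of the 5 markers tested ran from -3.55 to 5.68. Past the adjusted test (limma), 2 rose and 1 fell, where 3.61% of all features rose and 4.21% fell. The part of such cells in the Cfd values was not tested.

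Cfp, which encodes properdin, the stabilizer of the alternative convertase, was 3.42, 2.96 and 3.52 in untreated and 3.65, 2.86 and 2.92 in treated wild-type liver, and 3.85, 3.64 and 3.49 in untreated and 3.29, 3.50 and 2.75 in treated HESKOL liver. These groups overlapped. C4bp, the binding protein that holds back the classical convertase, was 7.69, 7.56 and 7.79, then 7.62, 7.63 and 7.47 with dexamethasone in wild type, and 7.47, 7.57 and 8.01, then 7.38, 7.79 and 7.09 in HESKOL liver. Again the groups overlapped, and its effects were -0.11 (SE 0.23) and -0.26 (SE 0.23). Cfi, the protease that inactivates C3b and C4b, changed by 0.05 and -0.02.

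The 5 terminal components among the members take part in building the membrane pore, and C9 forms its ring. C9 was 3.32, 3.75 and 3.75 in untreated and 3.50, 4.34 and 3.98 in treated wild-type liver. In HESKOL liver it was 3.27, 3.28 and 3.53 untreated and 2.80, 3.11 and 2.73 treated. The treated HESKOL mice were the lowest 3 of the 12, without overlap with either the untreated HESKOL or the treated wild-type group. C9 changed by 0.33 (SE 0.25) in wild-type and -0.48 (SE 0.25) in HESKOL liver. Under dexamethasone HESKOL liver was lower (-1.06, SE 0.25, 2.08-fold), which missed the threshold at adjusted p = 0.071 and passed at 0.025 (-1.28) without replicate 1 of the treated wild-type mice. C6, which extends the complex from C5b, was 4.33, 4.40 and 4.12, then 3.76, 4.94 and 5.20 with dexamethasone in wild type, and 2.94, 3.22 and 3.93, then 3.59, 2.60 and 3.92 in HESKOL liver. The untreated genotypes did not overlap for C6, with HESKOL lower (-0.92, SE 0.43), and neither genotype difference passed the adjusted test. C8a, C8b and C8g, the chains of C8, differed by -0.50, -0.42 and -0.24 in HESKOL against wild-type liver with dexamethasone, none past the test.

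C3ar1, the receptor for the C3a fragment, carried by macrophages and other leukocytes, was 1 of the 2 members called. Its probe lies at chr6:122885185-122885244 on the array design's build, mm7. It was -4.05, -3.83 and -4.05 in untreated and -4.82, -4.67 and -4.90 in treated wild-type liver, and -3.13, -3.30 and -3.75 in untreated and -4.30, -4.73 and -4.72 in treated HESKOL liver. This signal was dim, though well above background on every array. In both genotypes every treated mouse lay below every untreated one. The untreated HESKOL mice also lay above the untreated wild-type mice. C3ar1 fell by 1.19 (SE 0.22, 2.29-fold) in HESKOL liver (adjusted p = 0.011), and its change in wild-type liver was -0.82 (SE 0.22, adjusted p = 0.180); the difference between the genotypes, -0.37 (SE 0.31), did not pass. Its other probe fell too, by 1.43 (adjusted p = 0.025 over all probes).

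The 12 markers of Kupffer cells, the liver's macrophages, were all lower with dexamethasone in HESKOL liver (median -0.88), where 50.2% of all features were. Past the adjusted test (limma) 2 of the 12 fell there, Adgre1 (-1.60) and Lyz2 (-1.70), where 4.21% of all features fell. In wild-type liver 9 of 12 were lower (median -0.27), against 52.1% of all features. Against 58.3% of all features, all 12 were higher in untreated HESKOL than in untreated wild-type liver (median 0.40). Their summed linear level ran from 178 to 356 in untreated and 135 to 303 in treated wild-type, and from 250.0 to 409 in untreated and 103 to 236 in treated HESKOL liver, and none was below background throughout a group. All 9 neutrophil and all 10 lymphocyte markers were also lower with dexamethasone in HESKOL liver (medians -2.39 and -1.08). In wild-type liver 5 of 9 neutrophil and all 10 lymphocyte markers were lower with it (medians -0.22 and -0.64). Without treatment all 9 and all 10 were higher in HESKOL than in wild-type liver (medians 0.79 and 0.29). Neutrophil markers summed to 9.66 to 281 in untreated and 2.33 to 38.4 in treated HESKOL liver, and to 15.2 to 371 and 18.9 to 170 in wild-type liver. Lymphocyte markers summed to 1.80 to 2.81 and 0.653 to 1.19 in HESKOL, and to 1.43 to 1.96 and 0.524 to 2.24 in wild-type liver. The part of these cells in the C3ar1 values was not tested. The C3ar1 call was lost with slide as a fixed block (-0.91, adjusted p = 0.776) and with another background correction (-0.54, adjusted p = 0.649). With that correction the C3ar1 change in wild-type liver turned positive. The call was also lost in the unscaled deposited values. It was lost as well without replicate 1 (adjusted p = 0.058) or 2 (0.053) of the untreated or replicate 2 (0.053) of the treated HESKOL mice.

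Of the genes that start coagulation, F3, which encodes tissue factor, was -0.87, -0.61 and -0.88 in untreated and -0.22, -1.78 and -2.46 in treated wild-type liver, and -1.14, -1.25 and -1.01 in untreated and -2.51, -1.86 and -1.91 in treated HESKOL liver. In HESKOL liver all treated mice lay below all untreated mice, and in wild-type liver 2 of 3 did, with treated replicate 1 above the whole untreated group. Tfpi, which encodes the inhibitor of the tissue factor complex, was -0.91, -0.95 and -0.79, then -0.56, -1.67 and -2.21 with dexamethasone in wild type, and -0.65, -0.58 and -0.53, then -1.12, -1.43 and -1.82 in HESKOL liver. Again treated replicate 1 of the wild-type mice was the highest of its group and the HESKOL groups did not overlap. The HESKOL effects were -0.96 (SE 0.45, adjusted p = 0.213) for F3 and -0.87 (SE 0.35, adjusted p = 0.156) for Tfpi, and the wild-type effects -0.70 (SE 0.45) and -0.60 (SE 0.35).

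That mouse is the one that stood apart at Fkbp5 and Tsc22d3, and its part in the F3 and Tfpi values was not tested beyond leaving it out. Leaving it out, which also lowers the shared estimate of the spread, changed the call for both genes. Without treated wild-type replicate 1, F3 fell by 1.33 (adjusted p = 0.022) in wild-type and by 0.96 (adjusted p = 0.025) in HESKOL liver, and Tfpi by 1.06 (adjusted p = 0.034) and 0.87 (adjusted p = 0.026). They were the only 2 of 42 members called in wild-type liver in that fit, where 6.06% of all features passed. In HESKOL liver C3ar1, Pros1, F3 and Tfpi were called, where 14.9% of all features passed. The other F3 probe changed by -0.94 in HESKOL liver, and 2 further Tfpi probes by -1.02 and -1.08. With slide as a fixed block the HESKOL changes turned to 0.49 for F3 and 0.19 for Tfpi. F7, the partner protease of tissue factor, changed by -0.22 and -0.09 (SE 0.21 each).

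**Figure D3:**
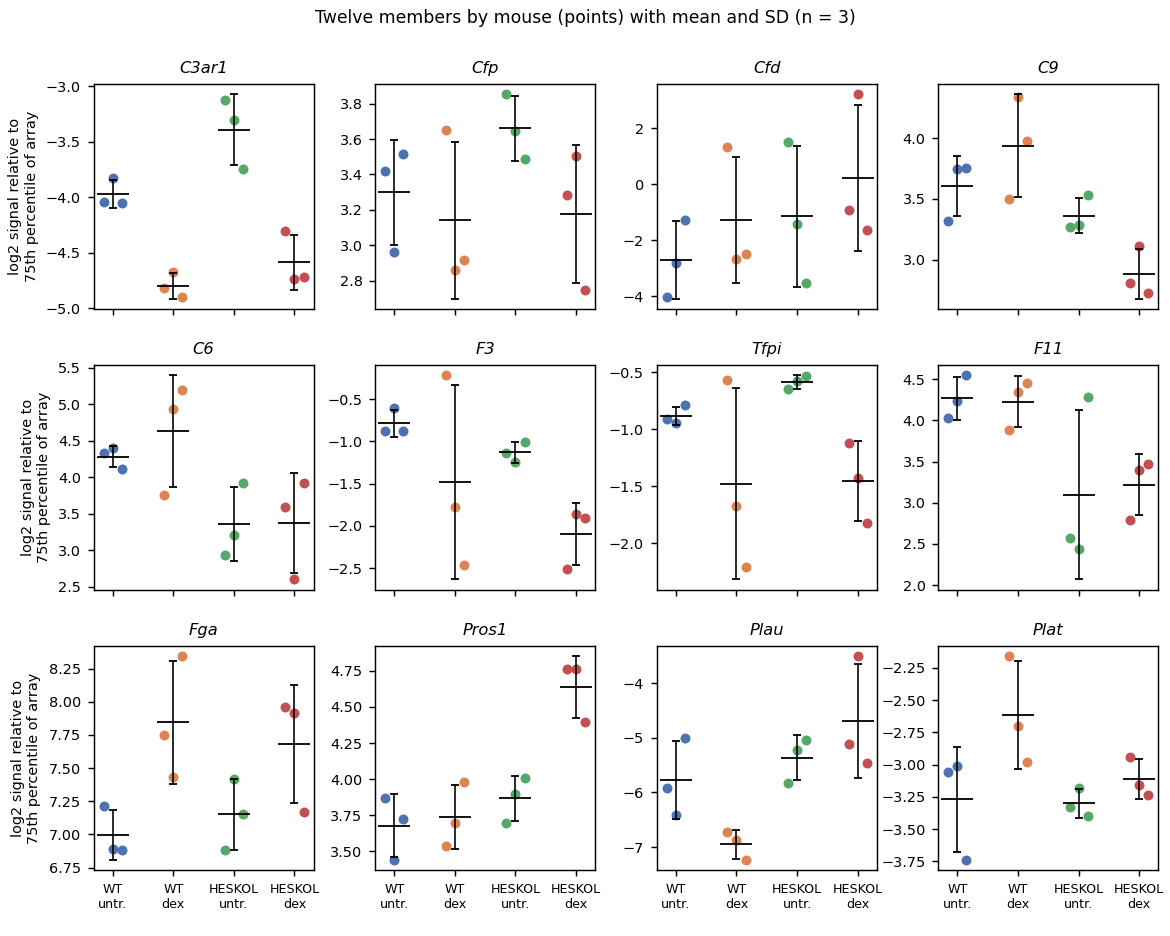
Points are single mice, long bars the group mean and whiskers the SD (n = 3), on the log2 scale relative to the array's 75th percentile; WT is wild type, untr. untreated and dex dexamethasone, and each panel has its own axis. C3ar1 is lower in every treated mouse of both genotypes, Pros1 is highest in the 3 treated HESKOL mice, and F3 and Tfpi each have 1 high treated wild-type mouse.

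In the contact system, F12, the protease that begins it, was 6.20, 6.37 and 6.58, then 6.64, 6.61 and 6.40 with dexamethasone in wild type, and 6.60, 6.23 and 6.76, then 6.66, 7.03 and 6.92 in HESKOL liver. The treated HESKOL mice lay above the treated wild-type mice, by 0.32 (SE 0.21), without passing the test. Klkb1 and Kng1, prekallikrein and kininogen, changed by -0.37 and 0.13 in wild-type and -0.39 and 0.06 in HESKOL liver.

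F11, the protease of the intrinsic pathway, differed by genotype more than by treatment. It was 4.02, 4.23 and 4.55 in untreated and 3.88, 4.35 and 4.46 in treated wild-type liver, against 2.57, 2.44 and 4.28 in untreated and 2.79, 3.40 and 3.47 in treated HESKOL liver. All HESKOL mice but untreated replicate 3 lay below every wild-type mouse. The HESKOL minus wild-type difference was -1.17 (SE 0.43) untreated and -1.01 (SE 0.43) with dexamethasone, at unadjusted p of 0.021 and 0.040 and with neither past the adjusted test (adjusted p = 0.291 for the latter). F9 and F5, an intrinsic protease and the cofactor of factor X, were higher without overlap in treated than untreated HESKOL liver, by 0.57 (SE 0.25) and 0.43 (SE 0.21), and neither passed. F8, F10 and F2, the cofactor of factor IX, the factor X protease and prothrombin, changed by -0.29 to 0.17 across both dexamethasone comparisons.

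The fibrinogen chains Fga, Fgb and Fgg, whose upstream sequences are printed above, were each higher on average with dexamethasone in both genotypes. Fga was 7.21, 6.89 and 6.88 in untreated and 7.75, 7.44 and 8.34 in treated wild-type liver, and 6.89, 7.42 and 7.15 in untreated and 7.96, 7.91 and 7.17 in treated HESKOL liver. The wild-type groups did not overlap and the HESKOL groups did. The Fga changes were 0.85 (SE 0.29, 1.80-fold, adjusted p = 0.302) and 0.53 (SE 0.29, adjusted p = 0.294). With slide as a fixed block they became 0.20 (SE 0.49) in wild-type liver and turned to -0.35 (SE 0.49) in HESKOL liver. Fgb changed by 0.26 and 0.15 and Fgg by 0.36 and 0.13, with SE of 0.23 to 0.25, and the Fgb probe was saturated on 1 or 2 arrays of each group. F13b changed by -0.11 and -0.08.

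Among the anticoagulants, Pros1, which encodes protein S, the cofactor of activated protein C, was the other member called, and it rose. Its probe lies at chr16:62869274-62869333 on mm7. It was 3.87, 3.44 and 3.72 in untreated and 3.54, 3.70 and 3.98 in treated wild-type liver, and 3.70, 3.90 and 4.01 in untreated and 4.76, 4.77 and 4.39 in treated HESKOL liver. The 3 treated HESKOL mice were the highest of the 12, while the wild-type groups overlapped. Pros1 rose by 0.77 (SE 0.21, 1.71-fold, adjusted p = 0.048) in HESKOL liver, against 0.06 (SE 0.21) in wild-type liver. The difference between those effects was 0.72 (SE 0.30) at an unadjusted p of 0.035 and an adjusted p of 0.697. With dexamethasone HESKOL liver was higher by 0.90 (SE 0.21, adjusted p = 0.071). Its other probe rose by 0.94 (adjusted p = 0.028 over all probes).

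The Pros1 call lay near the threshold. It held in 2 of the 12 fits that each left out 1 mouse, those without replicate 1 or replicate 3 of the treated wild-type mice, and was lost in the other 10. The adjusted p in these fits ran from 0.027 to 0.166. The call was also lost with slide as a fixed block (0.33, adjusted p = 0.897), with another background correction and in the unscaled deposited values. Proc, which encodes protein C itself, changed by -0.05 and 0.10 (SE 0.32 each).

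In fibrinolysis, Plg changed by 0.15 and 0.08 (SE 0.19). Plat, which encodes tissue plasminogen activator, was -3.06, -3.01 and -3.74 in untreated and -2.16, -2.70 and -2.98 in treated wild-type liver, without overlap (0.66, SE 0.26, adjusted p = 0.368), and -3.33, -3.18 and -3.39, then -2.94, -3.16 and -3.24 in HESKOL liver. Plau, which encodes urokinase, was -5.92, -6.41 and -5.01 in untreated and -6.72, -6.87 and -7.24 in treated wild-type liver, where none of the 3 arrays had it well above background. In HESKOL liver it was -5.82, -5.22 and -5.04 untreated and -5.11, -3.51 and -5.47 treated. With dexamethasone the HESKOL mean on this probe was higher than the wild-type mean, without passing the test (fitted change 2.25, SE 0.49, adjusted p = 0.060, limma). Setting wild-type liver at the lowest signal well above background gave a bound of 4.02-fold for these group means. Without treated HESKOL replicate 2, the highest of its group, the bound was 2.67-fold and the fitted change 1.66 (adjusted p = 0.184). The mean of its probes differed by 1.01 (adjusted p = 0.256). The direction turned with another background correction (-0.17), and the difference passed with median scaling (adjusted p = 0.048).

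Between genotypes without treatment, none of the 42 members passed, and neither did any feature (0% of 18637, limma); at an unadjusted p under 0.05 there were 297 features (1.59%) and 2 members, C3ar1 and F11. The members' median difference was 0.03 and that of all features 0.04. The genotypes did not overlap for 5 members, against 6.38% of features (4.17% higher and 2.21% lower): C2, C3ar1 and Tfpi were higher and C6 and F3 lower in HESKOL liver. With dexamethasone none passed either, where 1.13% of features did, and 7 members had an unadjusted p under 0.05, against 15.7% of features. These were C1s, C4a, C6, C9 and F11, which were lower, and Pros1 and Plau, which were higher. The treated genotypes did not overlap for 9 members, against 18.2% of features (10.5% higher and 7.69% lower), with C1s, C4a, Mbl1, C9 and F11 lower and F12, F5, Pros1 and Plau higher in HESKOL liver.

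**Figure D4:**
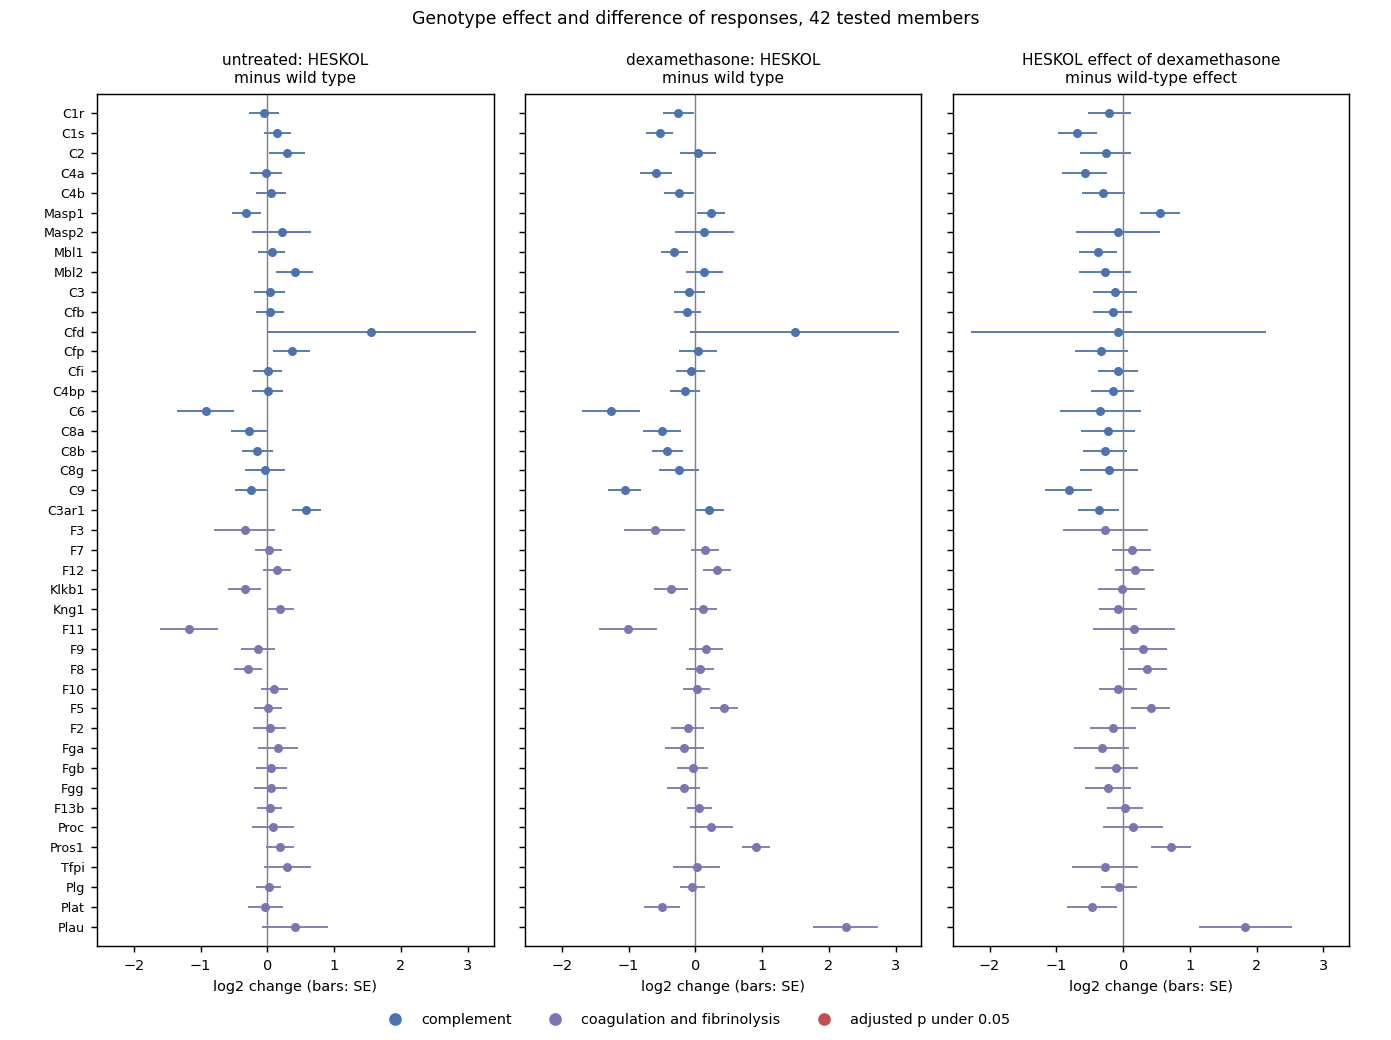
Points are log2 differences with SE bars for the 42 tested members: HESKOL minus wild type untreated (left), HESKOL minus wild type with dexamethasone (middle) and the difference between the genotypes' dexamethasone effects (right). No point is red, since no member passed the adjusted test in these 3 comparisons; Plau at 2.25 lies farthest from 0 in the middle panel.

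The difference between the genotypes' dexamethasone effects also passed for no member, where 0.0161% of features did, and 4 members (C1s, C9, Pros1 and Plau) had an unadjusted p under 0.05, against 6.63% of features. Its sign was uneven over the cascades. Of 21 complement members, 20 had a lower dexamethasone effect in HESKOL than in wild-type liver, with a median of -0.26, Masp1 being the exception, against 11 of 21 coagulation members with a median of -0.02. Over all features 49.9% were negative. The count of 20 was 14 without treated HESKOL replicate 3, 15 without untreated HESKOL replicate 3, 15 with slide as a fixed block, 14 with another background correction, where 62.6% of all features were negative, and 11 in the unscaled deposited values, where the median of all features was itself 0.25.

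Other genes of the same systems were counted for context. Of 28 further complement genes tested, 2 (7.14%) fell with dexamethasone in HESKOL liver, where 4.21% of all features fell and 7.82% passed in either direction. Cd59b, an inhibitor of the membrane pore, was -0.47, -0.96 and -0.29 untreated and -2.11, -1.63 and -1.86 treated, a fall of 1.29 (SE 0.32, adjusted p = 0.036), and Cd55, which breaks up convertases, fell by 0.94 (SE 0.25, adjusted p = 0.041). Of 27 further coagulation genes, 2 (7.41%) rose there, where 3.61% of all features rose. Both shares lie near that of all features called. Thbd, which encodes thrombomodulin, the receptor through which thrombin activates protein C, was -0.13, -0.19 and -0.31 untreated and 1.02, 2.08 and 1.25 treated, a rise of 1.66 (SE 0.41, adjusted p = 0.035). Serpina5, the protein C inhibitor, was -7.20, -8.69 and -4.94 untreated, well above background on 1 of those 3 arrays, and -0.66, -2.58 and -1.01 treated. Its fitted rise of 5.52 (SE 1.44, adjusted p = 0.041) rests on untreated signals that were mostly not well above background, so its size is uncertain. In wild-type liver Serpina5 was -3.66, -4.75 and -4.20 untreated and -5.30, 1.46 and -0.41 treated, with replicate 1 again apart. In wild-type liver Thbd was -0.53, -0.41 and -0.22 untreated and 2.13, 0.67 and 2.40 treated, without overlap, and its change of 2.12 (SE 0.41) did not pass (adjusted p = 0.096). Without treated wild-type replicate 1, Thbd (1.92, adjusted p = 0.038) and Serpina5 (4.73, adjusted p = 0.026) rose in wild-type liver. With all arrays none of these genes passed in the other 4 comparisons. Without that mouse 6 of the 27 coagulation genes passed in wild-type liver, 5 higher and 1 lower, where 6.06% of all features passed. In HESKOL liver 5 of 27 did, 3 higher and 2 lower, where 14.9% of all features passed. Of the 28 complement genes 0 passed in wild-type liver in that fit, and in HESKOL liver 1 rose and 2 fell. Of 14 other acute phase genes none passed in any comparison. All 14 had a positive change with dexamethasone in wild-type liver (median 0.35), where 47.9% of all features did. In HESKOL liver 8 of 14 did (median 0.05), against 49.8% of all features. Treated HESKOL replicate 3 was low at some of them: Saa1 was 8.72, 9.20 and 7.22 in that group and Orm1 6.12, 6.93 and 5.21. It was not the lowest at others, such as Hp (8.57, 9.12 and 8.91). These counts of signs are not a test.

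The arrays were run on 3 slides that do not cross the groups fully, and within a slide genotypes can be compared only with 1 mouse on 1 side. On the slide that held them together, treated HESKOL mice differed from the 1 treated wild-type mouse by 0.66 for Pros1, -1.09 for C9, 2.55 for Plau and -1.23 for F11. Untreated, the 1 HESKOL mouse on the slide of the wild-type mice differed from them by -1.70 for F11, -1.34 for C6 and 0.85 for C3ar1. No slide held treated and untreated mice of the same genotype, so dexamethasone effects were not measured within a slide.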

How the data were processed

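RNA (500 ng per liver, Cy3) of 12 mice, 3 in each of 4 groups named by the sample titles, was hybridised to one-colour arrays. The deposited values are intensities. Per the file headers they are a processed signal from which Agilent Feature Extraction, version 9.5.3.1, had subtracted background, on a design of mouse build mm7; the submitters' processing notes name version 9.5. The deposited series table repeats these intensities, unscaled. No further normalization is given in the sources used here.

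Each array was scaled here by subtracting, on the log2 scale, the 75th percentile of its non-control spots. Outlier spots were dropped, saturated ones kept, spots of a probe averaged, and the brightest probe on average stood for its gene. Of 41174 probes, accession named 22951 and symbol or synonym 9768 in RefSeq's gene table (GRCm38.p6); 2011 kept the file's name and 6444 had none. Of 27671 features, 18637 passed the brightness filter. A limma 3.58.1 model of the 4 group means (R 4.3.3, 8 residual and 3.13 prior degrees of freedom) gave 5 contrasts, with Benjamini-Hochberg adjustment over all features within each and a threshold of 0.05. The fit was tested on simulated data. The number of arrays limits the precision, and replicates are separate mice per the series design. Of the members, 15 had more than 1 probe.

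The members and gene lists were chosen with earlier results of these data known. Array values are given for members called in a contrast and for the member with the smallest p of each role where none was called; Cfd, C6, Tfpi and Plat were added after their values were seen. Of other genes, those past the threshold are named. Other settings tried were normexp correction (offset 50), quantile and median scaling, the deposited table, no filter, the mean of a gene's probes, blocks for slide (fixed, random) and replicate number, an intensity trend with robust spread, the compared groups alone, and each array omitted in turn.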

Additional observations from a re-analysis of the deposited data

How the results depend on the processing

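The replicate numbers do not pair the mice: over 18 same-numbered pairs the correlation of deviations ran from -0.40 to 0.62, with 6 above 0.1. With the replicate number as a block, 1 member instead of 2 was called with dexamethasone in HESKOL liver. In that comparison 0 were called with normexp background correction, with the deposited table and with slide as a fixed block, 1 with quantile normalization and without a filter, and 0 to 4 on leaving out 1 array. The count of 4 came without treated wild-type replicate 1, where 14.9% of all features passed. For HESKOL against wild-type liver with dexamethasone the count of 0 became 1 with quantile normalization (C9) and with median scaling, the deposited table and slide as a random block (Plau each time), and was 0 to 1 on leaving out 1 array. For dexamethasone in wild-type liver it was 0 to 2 on leaving out 1 array, with 2 without treated wild-type replicate 1, where 6.06% of all features passed. The members' median moved to -0.10 (wild type) and -0.22 (HESKOL) with quantile normalization. With the deposited table it moved to -0.26 for dexamethasone in wild-type liver, 0.10 for the treated genotypes and 0.094 for the difference of effects. With slide as a fixed block it moved to 0.15 for dexamethasone in HESKOL liver and 0.035 for the difference of effects. Directions turned for C3ar1 in wild-type liver (0.43), C3ar1 (-0.69) and Plau (-0.17) between treated genotypes, and Pros1 in wild-type liver (-0.14), all with normexp. Pros1 in wild-type liver also turned to -0.021 with quantile normalization, -0.27 with the deposited table and -0.32 with slide as a fixed block, and ran from -0.062 to 0.16 on leaving out 1 array. The Masp1 difference of effects turned to -0.19 with the mean of its probes, and with slide as a fixed block F3 turned to 0.49, C2 to 0.20, Tfpi to 0.19 and Fga to -0.35 in HESKOL liver. The cause of these shifts was not tested. In HESKOL liver F3 passed (adjusted p = 0.046) and Pros1 did not (0.056) when only the compared groups were fitted. Dim members, such as Plau, C3ar1 and C5ar1, are limited by signal over background.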

Other observations

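One further gene of the same systems had a wide difference that the test over all arrays did not call; it was chosen after its values were seen. A2m, which encodes the protease inhibitor alpha-2-macroglobulin, was -4.08, -1.90 and 0.95 in treated wild-type liver and at most -4.88 in the other groups, in each of which 1 of 3 arrays was well above background. Its fitted change in wild-type liver was 5.44 (SE 1.19, adjusted p = 0.118, limma), and 6.64 (SE 1.11, adjusted p = 0.011) without replicate 1 of the treated mice. The mouse left out was the lowest of its group. A2m passed the brightness filter only through the treated wild-type group, where it was high and for which it was chosen. Its adjusted p-values are therefore no support for a difference. The untreated signals were mostly not well above background, so the size of either change is uncertain.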
